A study of Mus musculus with 6 samples.

Results

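Acat2 and Hmgcs1 encode the enzymes that carry acetyl-CoA over the opening steps of cytosolic sterol synthesis, and both were read on a quantitative PCR plate of fatty acid metabolism genes in 3T3-L1 adipocytes. They are 2 of the 84 genes on the plate, found by their symbols in the deposited tables, and both were among the 74 genes measured well enough to be tested. They were chosen by their place in the pathway and by the measured difference between the groups, since an earlier look at these plates had found each lower in rmIL-15 samples with an unadjusted p under 0.05. Their difference between the groups is therefore given as a description, with no test.

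3T3-L1 is a mouse preadipocyte line that becomes fat-storing adipocytes under insulin, dexamethasone and IBMX. At day 14 the mature adipocytes received 500 ng/ml rmIL-15, recombinant mouse interleukin-15, for 24 hours (rmIL-15, n = 3). The untreated samples (untreated, n = 3) received no rmIL-15. From each sample 400 ng of RNA was made into cDNA by reverse transcription, and the cDNA was read on 1 plate of 96 wells. All 6 samples come from the same line and were differentiated in the same way. The groups follow the titles of the samples, which match the headers of the tables. A further label, the activation agent, names them the other way round, so every direction below rests on the titles. The sources do not say whether the 3 samples of a group came from separate cultures, so the spread between them may be technical.

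Most mammalian cells make sterols in the cytosol and endoplasmic reticulum from acetyl-CoA. Acat2, the cytosolic acetoacetyl-CoA thiolase, joins acetyl-CoA units into acetoacetyl-CoA. Hmgcs1, the cytosolic HMG-CoA synthase, adds a further acetyl group to form HMG-CoA, which is then turned into mevalonate, the precursor of cholesterol and isoprenoids. A separate thiolase, Acat1, works in mitochondria in ketone body use and isoleucine breakdown. Genes of the sterol route are well known targets of the SREBP transcription factors, which are released when membrane sterol is low and bind sterol regulatory elements, often beside CCAAT and GC boxes. Adipocytes store free cholesterol with their lipid droplets and also make it.

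Acat2 lies on mouse chromosome 17 (chr17:12943042-12960725, minus strand, GRCm38.p6) and Hmgcs1 on chromosome 13 (chr13:119690351-119708260, plus strand). The RefSeq identifiers in the authors' tables, NM_009338 and NM_145942, matched the annotation for both. Acat3, a gene of the same thiolase family, lies 2446 bases away on the same chromosome. The primers are not known from the sources used here, and whether the Acat2 well also reads Acat3 was not tested.

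The 250 bases before each gene's annotated start, from RefSeq on GRCm38.p6, are shown because the route they belong to is known for control at this kind of sequence, and because they hold letters in common. They are chr17:12960726-12960975 for Acat2 and chr13:119690101-119690350 for Hmgcs1, each written on the gene's own strand. Capitals mark CACCCCAC, the core of a sterol regulatory element, and the CCAAT box, which reads ATTGG where it lies on the other strand.
Acat2: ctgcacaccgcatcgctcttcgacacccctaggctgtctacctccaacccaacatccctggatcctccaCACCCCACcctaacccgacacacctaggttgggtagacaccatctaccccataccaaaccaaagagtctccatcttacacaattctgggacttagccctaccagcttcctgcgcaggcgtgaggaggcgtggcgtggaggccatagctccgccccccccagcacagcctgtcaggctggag
Hmgcs1: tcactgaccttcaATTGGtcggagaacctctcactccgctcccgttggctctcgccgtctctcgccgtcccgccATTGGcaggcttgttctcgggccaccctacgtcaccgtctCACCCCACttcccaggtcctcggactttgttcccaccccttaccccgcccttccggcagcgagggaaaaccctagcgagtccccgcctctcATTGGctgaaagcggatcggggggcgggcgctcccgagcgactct

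Both windows held CACCCCAC once, on the gene's strand, at bases -181 to -174 before the start of Acat2 and at -136 to -129 before the start of Hmgcs1. Searched on both strands, this core was in 846 of 32851 promoter windows of the same length (2.58%). Of the 84 plate genes 64 had a promoter in the table, with 80 windows, and the core was in 5 of those windows (6.25%), those of Acat2, Acsl1, Echs1, Fabp6 and Hmgcs1. The windows differed in the letters around the core. Hmgcs1 had 3 CCAAT boxes, all on the other strand, and Acat2 had none, against 33.8% of all windows and 42.5% of those of plate genes with at least 1. The GC box GGGCGG, in 32.7% of all windows and 57.5% of those of plate genes, was found once before Acat2 and at 2 places before Hmgcs1. The core and a CCAAT box stood together, as before Hmgcs1, in 0.703% of all windows. No match overlapped a match of another motif in these windows. These are matches of letters, and no binding was measured. The promoter of Acat1 was not analysed here.

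**Figure D1:**
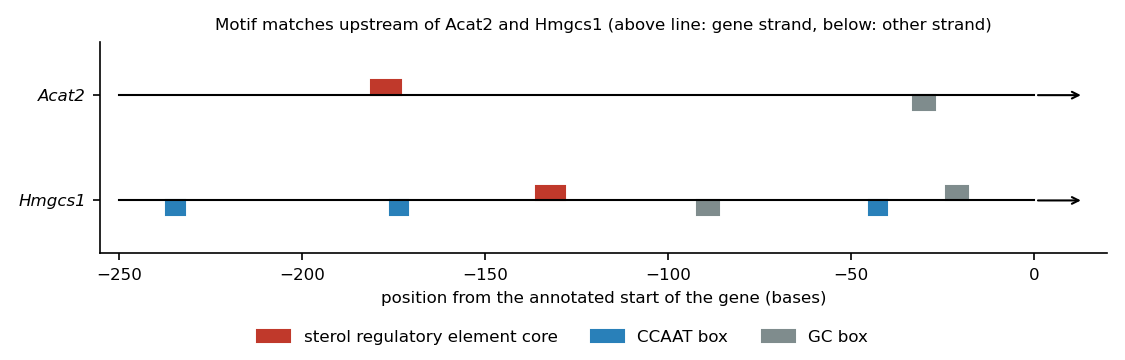
Motif matches in the 250 bases before the annotated start of Acat2 and Hmgcs1; the horizontal axis is the position from the start in bases, with the arrow at the gene. Each gene has 1 sterol regulatory element core on its own strand, and CCAAT boxes are seen before Hmgcs1 alone of the pair.

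Both genes were strongly read in these cells. A threshold cycle (Ct) is the PCR cycle at which the signal passes a set level, so a lower Ct means more template, and 1 cycle was taken as a doubling. Hmgcs1 had the 6th lowest mean Ct of the 84 genes in the rmIL-15 samples and the 5th lowest in the untreated samples. Acat2 ranked 10 in the rmIL-15 samples and 8 in the untreated samples, beside its mitochondrial counterpart Acat1, which ranked 11 in both. No source used here gives PCR efficiencies or product lengths, so these are orders of Ct and not of transcript number.

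The cells carried the transcripts of fat cells. All 4 adipocyte markers had mean Ct values between 16.7 and 22.3, with Fabp4, the fatty acid carrier of fat cells, the lowest. None of 5 liver or intestine markers and none of 3 muscle or 3 testis markers had a mean Ct under 30. Of these, 2 of the liver or intestine genes and 2 of the testis genes were at the limit of 35. The 3 muscle markers were read, at mean Ct values between 30.9 and 31.5. The brain marker Cpt1c stood at 28.4. RNA was pooled from all cells of a sample, so fewer cells of a type and less RNA per cell cannot be told apart.

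Before any reference was subtracted, the raw Ct of Acat2 was 22.8, 21.9 and 22.5 in the rmIL-15 samples, against 21.5, 21.9 and 22.4 in the untreated samples. The groups overlapped, with rmIL-15 replicate 2 below untreated replicates 2 and 3. Mean Ct was 22.41 ± 0.441 in rmIL-15 samples and 21.95 ± 0.423 in untreated samples (SD, n = 3 each). The raw Ct of Hmgcs1 was 22.2, 21.5 and 21.9 in the rmIL-15 samples, against 21.4, 21.4 and 21.9 in the untreated samples. Here too the groups overlapped, since untreated replicate 3 lay above rmIL-15 replicates 2 and 3. Mean Ct was 21.85 ± 0.334 in rmIL-15 samples and 21.56 ± 0.308 in untreated samples (SD, n = 3 each). In both genes rmIL-15 replicate 1 had the highest Ct of all 6 samples.

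The 2 genes mostly went up and down together from plate to plate. Between untreated replicates 1 and 2, though, the raw Ct of Acat2 rose (21.53 to 21.93) and that of Hmgcs1 fell (21.41 to 21.35). Their raw Ct values had a Pearson r of 0.937 over the 6 samples. In each sample the 2 genes share plate, RNA input and cDNA synthesis. The distance between them on a plate was small. Acat2 came 0.611, 0.424 and 0.657 cycles after Hmgcs1 in the rmIL-15 samples, against 0.125, 0.574 and 0.467 cycles in the untreated samples. This distance needs no reference well, and the groups overlapped in it, with a difference in means of 0.175 cycles against an SD of 0.193 over all 6 samples.

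Each gene was then set against the well annotated Gapdh, the reference the methods name. Ct minus that of the Gapdh well was -2.86, -3.24 and -2.97 cycles for Acat2 in the rmIL-15 samples, against -3.71, -3.25 and -3.59 cycles in the untreated samples. All rmIL-15 samples lay above all untreated samples in cycles, so Acat2 was lower in each of them, but rmIL-15 replicate 2, at -3.24, lay next to untreated replicate 2, at -3.25. On the log2 scale Acat2 differed by -0.49 (standard error 0.176), or 71.0% of the untreated level.

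For Hmgcs1, Ct minus that of the Gapdh well was -3.47, -3.67 and -3.63 cycles in the rmIL-15 samples, against -3.84, -3.82 and -4.06 cycles in the untreated samples. The groups did not overlap, and the spread within them was narrower than for Acat2. Hmgcs1 averaged -3.59 ± 0.106 cycles in rmIL-15 samples and -3.91 ± 0.130 cycles in untreated samples (SD, n = 3 each). On the log2 scale Hmgcs1 differed by -0.32 (standard error 0.123), or 80.2% of the untreated level.

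Over all 74 tested genes, limma called 6 lower (8.11%) and 1 higher (1.35%) at an unadjusted p under 0.05, and none (0%) at an adjusted p under 0.05. Acat2 and Hmgcs1 are 2 of those 6 by the way they were chosen. Just inside the limit lay Acat2, Hmgcs1 and Lpl, the lipase of circulating triglyceride, at -0.49, -0.32 and -0.31 on the log2 scale. The nearest gene outside it was a higher one, Prkag3, a muscle subunit of AMP-activated kinase, at 0.78. The nearest lower genes outside it were Acad9 at -0.27 and Acsl1 at -0.52. All 3 rmIL-15 samples were lower than all 3 untreated samples in 11 of the 74 genes (14.9%), Acat2 and Hmgcs1 included.

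The plate as a whole leaned the same way with this reference. Of 74 tested genes 53 were lower in sign, and their median log2 difference was -0.11. Acat2 was 7th and Hmgcs1 10th from the lowest difference. Relative to the median gene, Acat2 differed by -0.38 and Hmgcs1 by -0.21 on the log2 scale, and subtracting any other reference from a plate leaves these 2 relative values as they are.

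**Figure D2:**
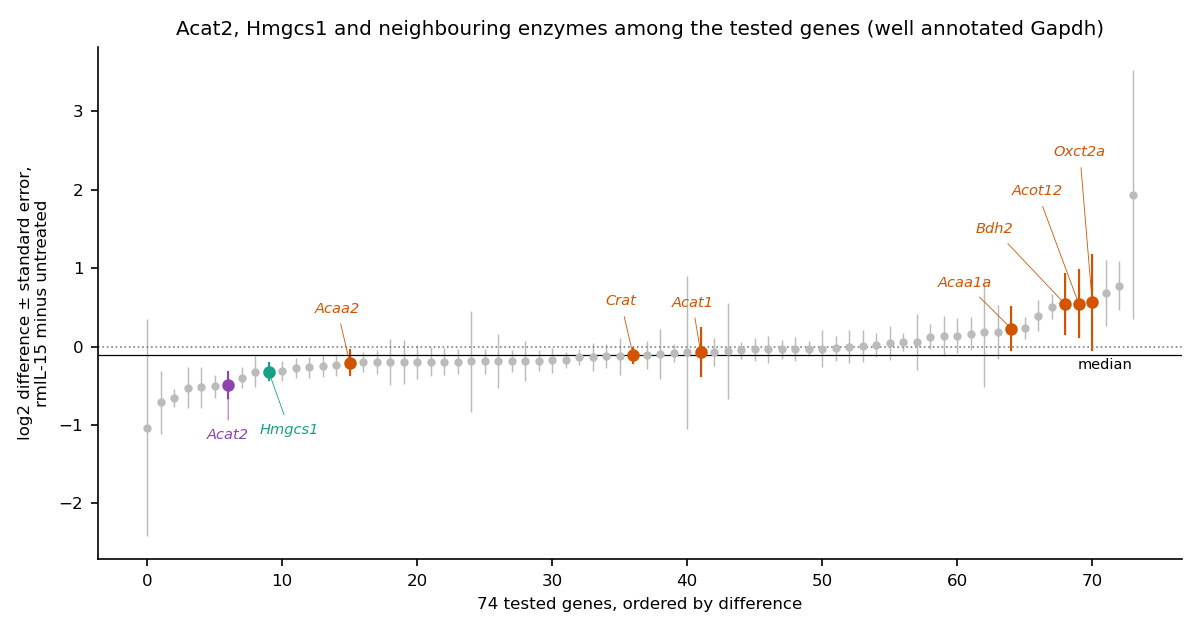
log2 difference, rmIL-15 minus untreated, of the 74 tested genes with the well annotated Gapdh as reference, ordered by the difference; bars are standard errors of the limma fit, and the solid line is the median. Acat2 (purple) and Hmgcs1 (green) lie 7th and 10th from the lowest, and the neighbouring thiolases and enzymes of acetyl-CoA and ketone bodies (orange) lie on both sides of 0.

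The normalized values the authors deposited equal Ct, limited to 35, minus the well annotated B2m. On these values Acat2 stood at 4.05, 3.56 and 4.08 cycles in the rmIL-15 samples, against 3.22, 3.44 and 3.60 cycles in the untreated samples. The groups overlapped, because rmIL-15 replicate 2 lay below untreated replicate 3. Hmgcs1 stood at 3.44, 3.14 and 3.42 cycles in the rmIL-15 samples, against 3.10, 2.86 and 3.14 cycles in the untreated samples, with no overlap and rmIL-15 replicate 2 just above untreated replicate 3. Acat2 differed by -0.48 and Hmgcs1 by -0.30 on the log2 scale. All rmIL-15 samples were lower than all untreated samples in 9 of 74 genes (12.2%) on these values.

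For Hmgcs1 the narrowest spread came with the well annotated Gusb, a lysosomal glucuronidase. Hmgcs1 lay 1.62, 1.58 and 1.58 cycles after it in the rmIL-15 samples, against 1.33, 1.36 and 1.44 cycles in the untreated samples. The samples of each group clustered closely (SD 0.0228 in rmIL-15 and 0.0569 in untreated samples) and did not overlap, at a log2 difference of -0.22. Gusb is singled out here because its spread was the narrowest, and the share of all 74 tested genes without overlap on this scale was not counted. With this well limma called 2 of the 74 genes lower at an unadjusted p under 0.05. Acat2 lay 2.23, 2.00 and 2.24 cycles after Gusb in the rmIL-15 samples, against 1.45, 1.94 and 1.91 cycles in the untreated samples. The groups did not overlap here either, at -0.39, and untreated replicate 1 alone stood well below the others.

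Over 7 references, the 5 annotated wells, their mean and the plate's median Ct, both genes were lower in sign with all 7. The groups did not overlap with 3 of the 7 for Acat2 and 4 of the 7 for Hmgcs1. All 7 use the same raw Ct values of these genes, so they are not independent of each other. Both genes were also chosen as lower, so the shared sign is no test. Of all tested genes, 14.9% had every rmIL-15 sample lower than every untreated sample with the Gapdh well and 12.2% with the B2m well. That share was not counted with the other references. The log2 difference ranged between -0.84 and -0.39 for Acat2 and between -0.67 and -0.22 for Hmgcs1. The low end of both ranges came with the well annotated Hsp90ab1, which read 19.5 cycles in untreated replicate 1 and between 18.5 and 18.9 cycles on the other plates. No reference well differed between the groups beyond its spread. The exact two-sided permutation p was 0.8 for Gapdh, 0.9 for Actb, B2m and Gusb, 0.4 for Hsp90ab1 and 0.6 for their mean, and 3 samples against 3 allow no p under 0.1. The well annotated Gapdh averaged 25.44 cycles in rmIL-15 samples and 25.46 cycles in untreated samples, a late Ct for a glycolytic enzyme, so the names of the reference wells are given as annotated and were not checked further.

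**Figure D3:**
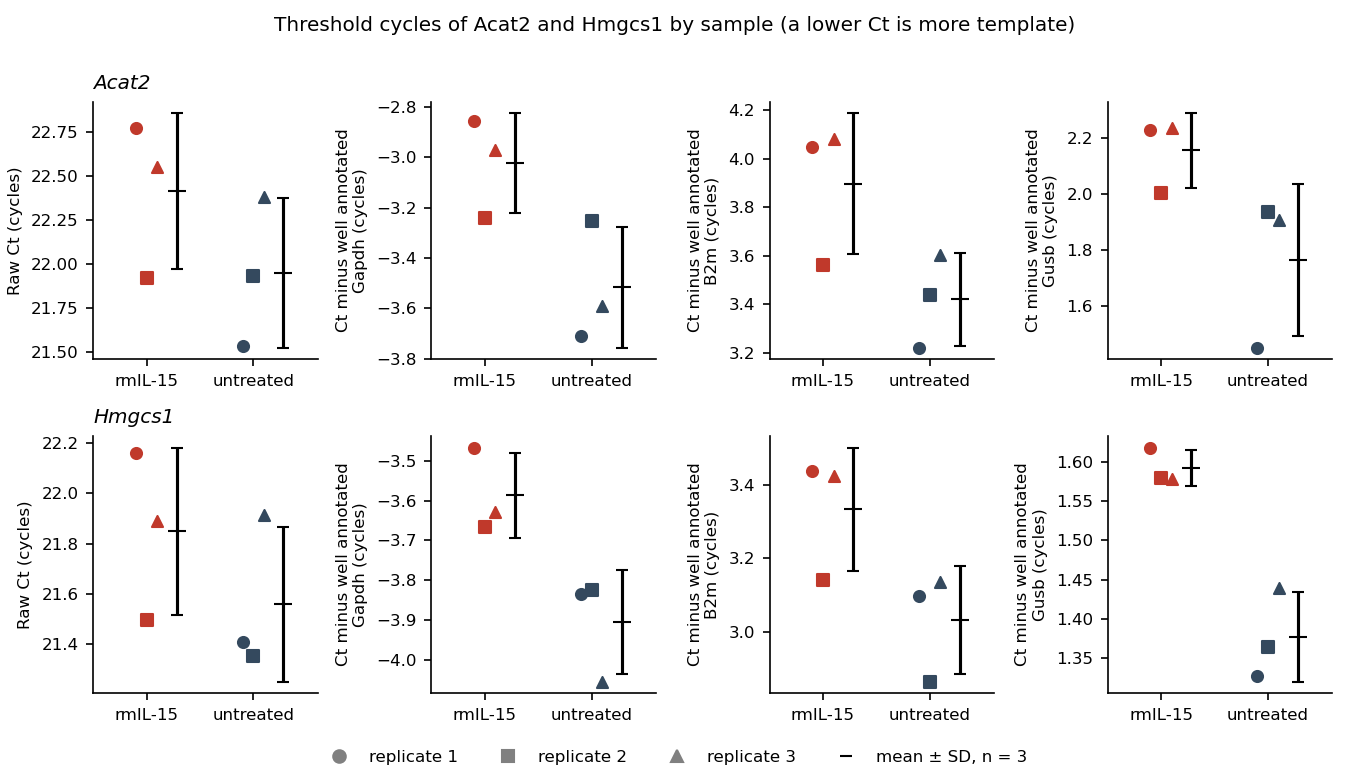
Threshold cycles of Acat2 (top) and Hmgcs1 (bottom) in each rmIL-15 (red) and untreated (dark) sample, raw and after subtraction of 3 reference wells, in cycles; symbols mark the replicate numbers and bars the mean and SD of 3 samples. Raw Ct overlapped between the groups in both genes, and with the Gapdh or Gusb well all rmIL-15 samples lay above all untreated samples. With the B2m well the groups overlapped in Acat2 and did not in Hmgcs1. All rmIL-15 samples were lower in 14.9% of the 74 tested genes with the Gapdh well and 12.2% with the B2m well. The share with the Gusb well was not counted.

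A control for cDNA synthesis moved with these genes. The plate carries 3 wells that read an artificial RNA added with the reverse transcription reagents. Their mean Ct was 22.8, 22.2 and 22.5 in the rmIL-15 samples, against 22.2, 21.95 and 22.5 in the untreated samples. The difference of 0.289 cycles was within the spread between samples (exact two-sided permutation p = 0.5). It was about as large as the raw shift of Hmgcs1, whose log2 difference before any reference was -0.29, and smaller than that of Acat2, at -0.46. Over the 6 samples the raw Ct of Hmgcs1 had an r of 0.948 with these wells and that of Acat2 an r of 0.806. These r values are descriptions, since the genes and control wells of a plate share the same cDNA reaction. The part of the cDNA reaction in the difference of either gene was not tested.

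With these control wells as the reference, chosen after the data were seen, Acat2 differed by -0.18 (standard error 0.238) and Hmgcs1 by -0.00041 on the log2 scale. The median of all 74 genes was then 0.21. Hmgcs1 was thus level between the groups on this scale, while its distance from the median gene was the same -0.21. The median Ct of the 69 genes under the limit on all plates differed by 0.029 cycles between the groups (exact permutation p = 0.9). That median was 25.5, 24.8 and 25.2 in the rmIL-15 samples, against 24.8, 24.9 and 25.7 in the untreated samples. The positive PCR control, which needs no cDNA, read between 19.2 and 19.3 cycles on all 6 plates.

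**Figure D4:**
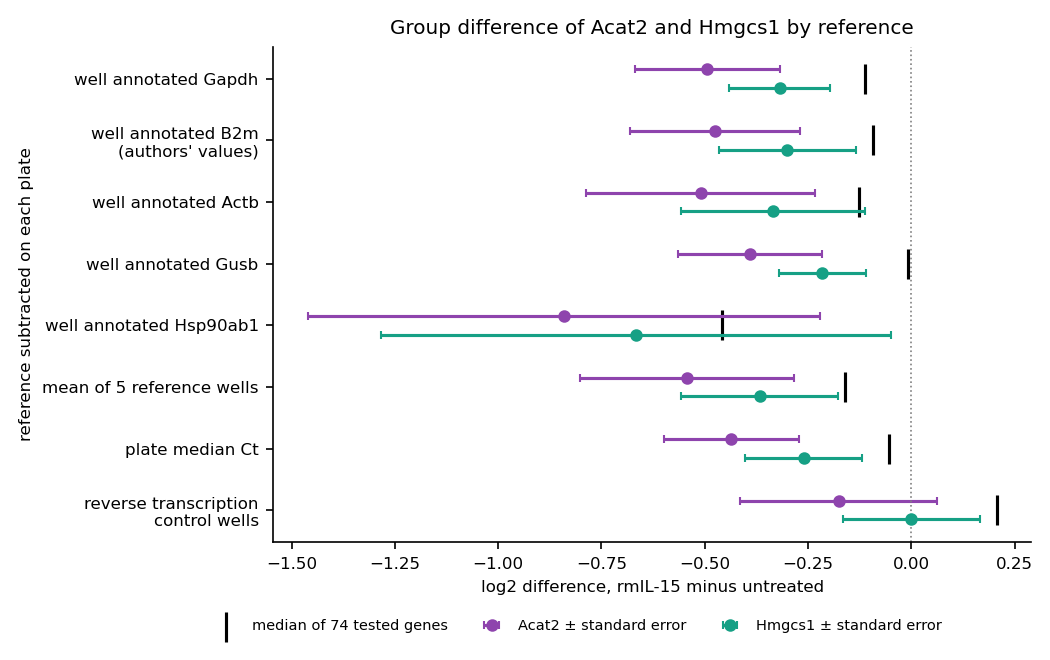
log2 difference, rmIL-15 minus untreated, of Acat2 (purple) and Hmgcs1 (green) under 8 references, with standard errors of the limma fit; black ticks mark the median of the 74 tested genes. Both genes lie left of the median by the same distance in every row, and with the reverse transcription control wells Hmgcs1 lies at 0.

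**Figure D5:**
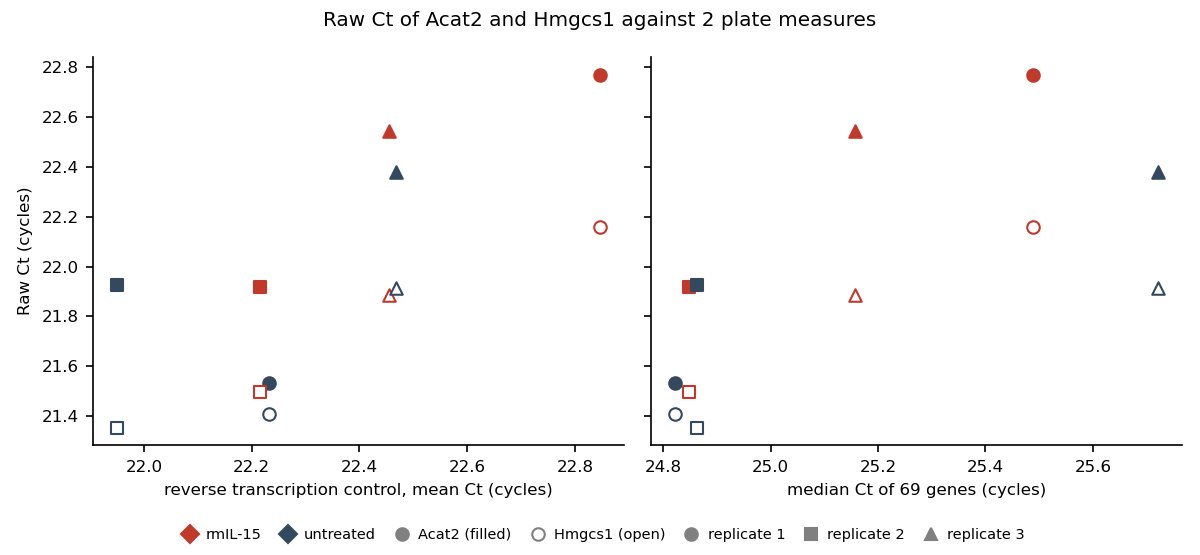
Raw Ct of Acat2 (filled) and Hmgcs1 (open) in each rmIL-15 (red) and untreated (dark) sample against the mean Ct of the reverse transcription control wells (left) and the median Ct of 69 genes (right), in cycles; symbols mark the replicate numbers. Plates with a later control Ct tended to have a later Ct of both genes, though not in every pair of plates. The r was 0.948 for Hmgcs1 and 0.806 for Acat2 on the left, and 0.858 and 0.773 on the right.

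The Gapdh well and the plate median narrowed the spread of both genes, and the Hsp90ab1 well widened it, to a pooled SD of 0.775 cycles for Acat2 and 0.633 cycles for Hmgcs1. Pooled in the same way within the groups, the SD of Hmgcs1 was 0.321 cycles raw, 0.119 with the Gapdh well and 0.149 with the plate median. That of Acat2 was 0.432, 0.219 and 0.193 cycles on the same scales. The median gene had 0.366, 0.218 and 0.217 cycles, so Hmgcs1 was steadier than the median gene on each scale and Acat2 was more variable in raw Ct.

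Acat2 was set beside its mitochondrial counterpart on the same plate, which needs no reference well. Raw Ct of Acat1 was 22.4, 22.6 and 22.4 in the rmIL-15 samples, against 22.5, 22.4 and 22.3 in the untreated samples, nearly level across plates on which Acat2 moved by more than 1 cycle. Acat2 came 0.405, -0.650 and 0.162 cycles after Acat1 in the rmIL-15 samples, against -0.994, -0.432 and 0.0851 cycles in the untreated samples. The groups overlapped in this distance.

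The neighbouring genes of acetoacetyl-CoA and HMG-CoA metabolism gave no call of their own. Of 25 such genes in 5 lists 10 were on the plate and 9 could be tested; 5 were lower and 4 higher in sign, against 53 lower of the 74 tested genes of the plate. None passed limma at an adjusted p under 0.05, and without adjustment limma called 0 at p under 0.05, as did the methods' own test of single genes. Over the whole plate the shares were 0% with adjustment and, without it, 8.11% lower and 1.35% higher, so a count of 0 among 9 genes is close to that of the plate. None of the 9 later enzymes of sterol synthesis in the lists is on the plate, so the route beyond HMG-CoA was not measured.

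Among 3 further thiolases on the plate the median log2 difference was -0.07, against -0.11 over all tested genes. Acat1 was at -0.07 (standard error 0.319, limma adjusted p = 0.949), and its sign turned to 0.03 with the Gusb well. The peroxisomal Acaa1a was at 0.23 (adjusted p = 0.822) and the mitochondrial Acaa2, a thiolase of fatty acid oxidation, at -0.20 (adjusted p = 0.686). Adjusted p values of these 3 genes were at least 0.601 over all the other settings tried.

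The 2 ketone body enzymes tested had a median of 0.55. Bdh1, the mitochondrial hydroxybutyrate dehydrogenase, was at or past the limit of 35 cycles on all 6 plates. Bdh2, a cytosolic dehydrogenase of the same family, was at 0.54 (standard error 0.393, limma adjusted p = 0.686). Oxct2a, a CoA transferase best known in testis, was at 0.57 (standard error 0.618, limma adjusted p = 0.816). Its mean Ct was late, 32.7 in rmIL-15 and 33.3 in untreated samples, and leaving out 1 sample gave values between 0.0875 and 1.18. Crat, which passes acetyl groups to carnitine, was at -0.11 (adjusted p = 0.715). Acot12, a cytosolic acetyl-CoA thioesterase, read 33.7, 34.8 and 34.8 cycles in the rmIL-15 samples and past the limit of 35 cycles in all 3 untreated samples. Its untreated level is only a bound and it entered the fit through the rmIL-15 samples alone, so the sign of its Ct difference was fixed by the limit, and it is 1 of the 4 genes counted as higher.

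By their course over the 6 plates, Acat2 and Hmgcs1 were not each other's nearest gene. With every plate centred on its median Ct and all 73 other tested genes compared, Acat2 was most like Decr1, a reductase of unsaturated fatty acid oxidation (r = 0.913), Cpt2, the carnitine palmitoyltransferase of the inner mitochondrial membrane (0.895), and Acox2, a peroxisomal oxidase of branched chains (0.893). Hmgcs1 came 6th in that order, at 0.761, and Acat1 44th, at 0.047. Hmgcs1 was most like Acsl3, a long-chain acyl-CoA synthetase of the endoplasmic reticulum and lipid droplets (r = 0.989), then Prkaca, the catalytic subunit of protein kinase A (0.906), and Hadha, part of the trifunctional enzyme of mitochondrial fatty acid oxidation (0.891). Acat2 came 14th for Hmgcs1. These are descriptions over 6 samples, of genes read on the same plates. They hold the difference between the groups as well as the differences within them.

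After each group's mean was removed, Acsl3 was still among the 3 genes most like Hmgcs1 (r = 0.982), with Fabp3 (0.986) and Acsl5 (0.971). Centred on the plate median, Hmgcs1 stood at -3.33, -3.35 and -3.27 cycles in rmIL-15 samples, against -3.41, -3.51 and -3.81 cycles in untreated samples. These r values thus rest mostly on the untreated samples, with replicate 3 the furthest from its group's mean. The part of the subtracted median in them was not tested. For Acat2 the 3 nearest genes were Slc27a3 (0.824), Acot8 (0.792) and Decr1 (0.749). Slc27a3 had no Ct in untreated replicate 2, where it was set to 35, and read between 29.2 and 30.1 cycles on the other plates, so that value enters its r. Acat2 and Hmgcs1 then had an r of 0.423 with each other. With the Gapdh well as reference and the group means left in, Acox2, Cpt2 and Decr1 were again the 3 nearest to Acat2. On those values, which hold the difference between the groups, Acsl3 was again the nearest to Hmgcs1, at 0.977. Group means were not removed from the values with the Gapdh well.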

How the data were processed

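SYBR green PCR arrays were run on 6 samples, 1 plate each. The authors deposited Ct values as read (cycles) and a normalized table in cycles, that is log2 units in which a larger value means less transcript. That table equals Ct, at most 35, minus the B2m well (largest difference 3.55e-15), whereas its header speaks of averaged housekeeping genes and the methods of GAPDH. The deposited table of fold changes between the groups and 6 columns of per-sample linear values were not used.

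Here Ct was limited to 35, the well annotated Gapdh was subtracted and the sign turned, so that values are log2 with a doubling per cycle assumed. The 74 of 84 genes that read below Ct 35 throughout rmIL-15 or throughout untreated samples were fitted with limma 3.58.1 (R 4.3.3; lmFit, eBayes) over all 6 samples, with Benjamini-Hochberg adjustment. Single wells were compared by exact permutation tests. The number of plates limits the precision. Between 71 and 74 genes read under the limit per plate. Genes named were Acat2 and Hmgcs1, plate genes of 5 pathway lists (some genes of the lists are not reported here), the 5 reference wells, the 3 genes most correlated with each of the pair, and the genes around the unadjusted limit. Genes, lists and motifs were chosen with earlier results of these data known. Other references, Ct limits, filters, a t-test, a robust fit, a replicate block and leaving out each sample were tried. The fit was tested on simulated data.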

Additional observations from a re-analysis of the deposited data

How the results depend on the processing

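Acat2 and Hmgcs1 were lower in sign under all settings tried, but both were chosen as lower in this contrast, so the sign is no test. The Ct limits, filters, t-test and robust fit leave their log2 differences as they are by construction. The smallest value, -0.00041 for Hmgcs1, had a standard error of 0.166, so Hmgcs1 was level between the groups there. With the well annotated Hsp90ab1 as reference the log2 difference was -0.84 for Acat2 and -0.67 for Hmgcs1, and with the reverse transcription control wells, chosen after the data were seen, -0.18 and -0.00041. Leaving out 1 sample at a time gave values between -0.63 and -0.40 for Acat2 and between -0.36 and -0.24 for Hmgcs1. The count of genes lower at an unadjusted p under 0.05 by limma, 6 with the Gapdh well, was 3 with the authors' values or the B2m well, 2 with Gusb, 1 with Hsp90ab1 and 0 with the control wells. Leaving out 1 sample gave counts between 2 and 4, with 2 genes without untreated replicate 1 and 3 without rmIL-15 replicate 1 or replicate 2. The cause of these moves was not tested. The count of higher genes, 1 with the Gapdh well, ranged between 0 and 7, the 7 with the control wells. At an adjusted p under 0.05 the count was 0 in every setting.

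Samples with the same replicate number did not deviate together (correlations -0.267, 0.0916 and -0.275). Deviations from means of only 3 samples cannot decide whether the numbers pair the samples, and the sources do not say. With the replicate block 2 genes were lower and 2 higher at an unadjusted p under 0.05, and the log2 differences of Acat2 and Hmgcs1 stayed at -0.49 and -0.32 by construction. Precision is limited by 3 plates per group, a single well per gene and unknown PCR efficiencies.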
